A study of Mus musculus with 4 samples.

Results

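Of 9442 autosomal restriction sites scored in all 4 libraries, 2190 (23.2%) scored below 50 in both wild type mice and 50 or above in both Tet1 knockout mice. These 2190 sites, called wild type-low sites here, were chosen by that rule from the scores themselves, so the gap between genotypes at them describes the choice and was not tested. As deposited, each of the 9442 sites was below 50 in both mice of at least 1 genotype, so shares given here are shares of that list and not of all sites assayed. The libraries came from LSK cells, the bone marrow fraction enriched for blood stem and early progenitor cells, of 2 wild type and 2 Tet1 knockout mice, all 6 months old. Each mouse gave 1 library, named here by genotype and mouse number. Each deposited file gives a score from 0 to 100 at 9738 listed sites, of which 11 to 47 per library were blank. The depth behind a score is unknown, and whether a low score means more or less 5-hydroxymethylcytosine is not given in the sources read. Results are therefore stated as scores. The kind of knockout allele is likewise not given, and the scores hold no check of the genotype or of the sorted cell type.

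5-Hydroxymethylcytosine is made from 5-methylcytosine by the TET enzymes, of which Tet1 is a member. In stem and progenitor cells it is known as an intermediate on the way to removal of DNA methylation and as a lasting mark at enhancers and in gene bodies. The assay, named HELP-GT in the labels, reads short sequence tags beside CCGG sites, which the enzymes HpaII and MspI both recognise but cut with different sensitivity to cytosine modification. A score at a site is an average over all cells of a library. Positions are on mm9 and are printed as deposited. Sequence around the sites, the genes they lie in and their CpG density were not analysed here, because the gene and promoter tables used with these files are on GRCm38.p6. The highest listed position on chromosome 1, 197039338, lies beyond the end of the last gene of that chromosome in those tables, 195291439.

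The median score of the wild type-low sites lay about 10 units from the cut-off in each library. In wild type replicate 1 their scores ran from 9.06 to 49.9 with a median of 41.2, and in wild type replicate 2 from 6.32 to 49.998 with a median of 40.3. In knockout replicate 1 they ran from 50.02 to 100 with a median of 59.0, and in knockout replicate 2 from 50.01 to 100 with a median of 61.7. Knockout replicate 2 was thus the higher of the knockout libraries at these sites. It was also more widely spread, with an SD over sites of 10.1 against 8.36. It scored above knockout replicate 1 at 58.9% of these sites. Over all scored autosomal sites the order was reversed, with medians of 46.5 in knockout replicate 1 and 44.9 in knockout replicate 2. Mean scores over the sites were 38.9 ± 0.708 for wild type and 62.1 ± 2.12 for knockout mice (SD, n = 2 per genotype), a gap of 23.2 score units. The middle 50% of sites had a knockout minus wild type difference between 15.9 and 28.7.

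**Figure D1:**
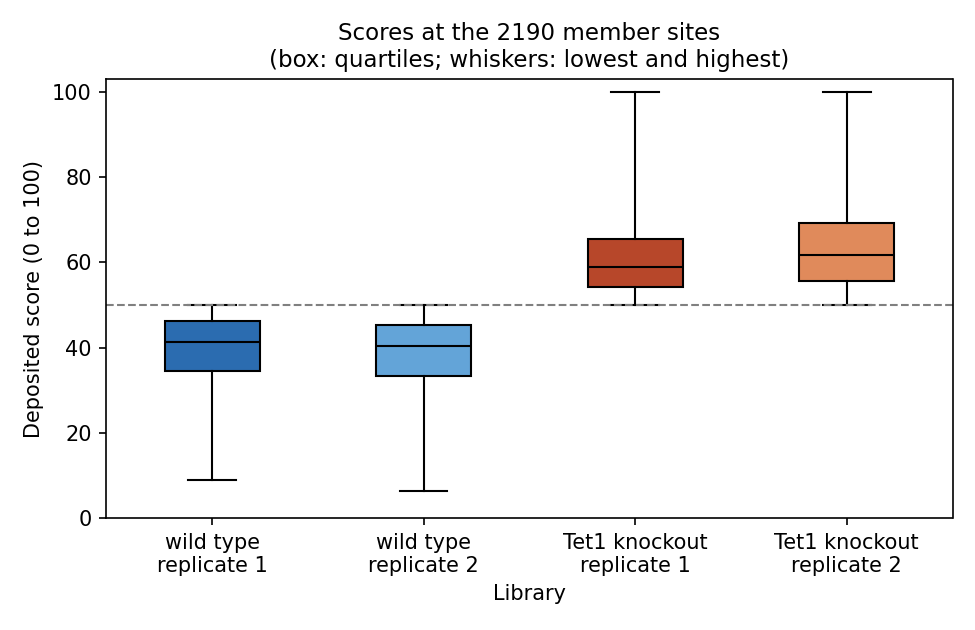
Deposited scores (vertical axis, 0 to 100) of the 2190 wild type-low sites in each of the 4 libraries (horizontal axis); boxes give the quartiles with the median line, whiskers the lowest and highest site, and the dashed line the cut-off of 50. The wild type medians are 41.2 and 40.3 and the knockout medians 59.0 and 61.7, and the cut-off between them is set by the rule.

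The separation of a site, its lowest knockout score minus its highest wild type score, had a median of 12.4 and ran from 0.472 to 69.3. It was at least 20 at 470 sites (21.5%), at least 30 at 126 (5.75%) and at least 40 at 32 (1.46%). All 4 scores lay at least 10 units from 50 at 144 sites (6.58%) and at least 15 units away at 39 (1.78%). At the other end, 461 sites (21.1%) had a score within 1 unit of 50. By the rule all 2190 sites had both knockout scores above both wild type scores, against 34.3% of all scored autosomal sites. At 1953 of them (89.2%) the mean difference also exceeded both gaps between mice of a genotype, against 26.4% of all scored autosomal sites. The reverse class, 1293 sites below 50 in the knockout alone, had a median separation of 11.9, and 21.4% of it reached 20. Since both classes are cut at 50, their separations are given side by side only. The count of wild type-low sites depends on the scaling of the libraries, whose medians over the autosomal sites were 42.5 and 42.3 in the wild type mice and 46.5 and 44.9 in the knockout mice. After median centring 1464 sites met the rule and after quantile normalization 1187, and it rises to 3421 or 3620 when knockout replicate 1 or 2 is left out of the rule.

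The widest separations at sites with no score of exactly 0 or 100 were spread over 9 chromosomes among the 10 sites named. On chromosome 4 the site at 45622336 scored 21.5 and 6.32 in wild type replicates 1 and 2 and 85.7 and 75.1 in knockout replicates 1 and 2, a separation of 53.7. On chromosome 17 the site at 35652649 had wild type scores of 30.8 and 31.6 and knockout scores of 83.0 and 83.6. The mice of each genotype differed by under 1 unit there, the closest agreement among these 10 sites. On chromosome 15 the site at 99535014 had wild type scores of 26.9 and 32.4 and knockout scores of 83.0 and 85.2. On chromosome 18 the site at 55117734 had wild type scores of 40.8 and 6.32 and knockout scores of 91.3 and 89.2. On chromosome 8 the site at 74284067 had wild type scores of 10.7 and 30.8 and knockout scores of 79.0 and 91.3. At these last 2 sites the wild type mice differed from each other far more than the wild type mice at the sites on chromosomes 17 and 15.

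The other 5 of the 10 had separations between 45.1 and 45.9. The site at 79840681 of chromosome 10 had wild type scores of 23.9 and 35.3 and knockout scores of 81.2 and 84.4. The site at 33830230 of chromosome 5 had wild type scores of 30.8 and 30.2 and knockout scores of 81.8 and 76.5. At 148065423 of chromosome 7 both genotypes were higher, with wild type scores of 35.8 and 41.4 and knockout scores of 86.9 and 90.7. At 9629210 of chromosome 1 both were lower, with wild type scores of 16.4 and 12.1 and knockout scores of 79.0 and 61.7. The site at 125650849 of chromosome 4 had wild type scores of 22.2 and 26.4 and knockout scores of 71.5 and 90.1, the widest gap between knockout mice among the 10.

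**Figure D2:**
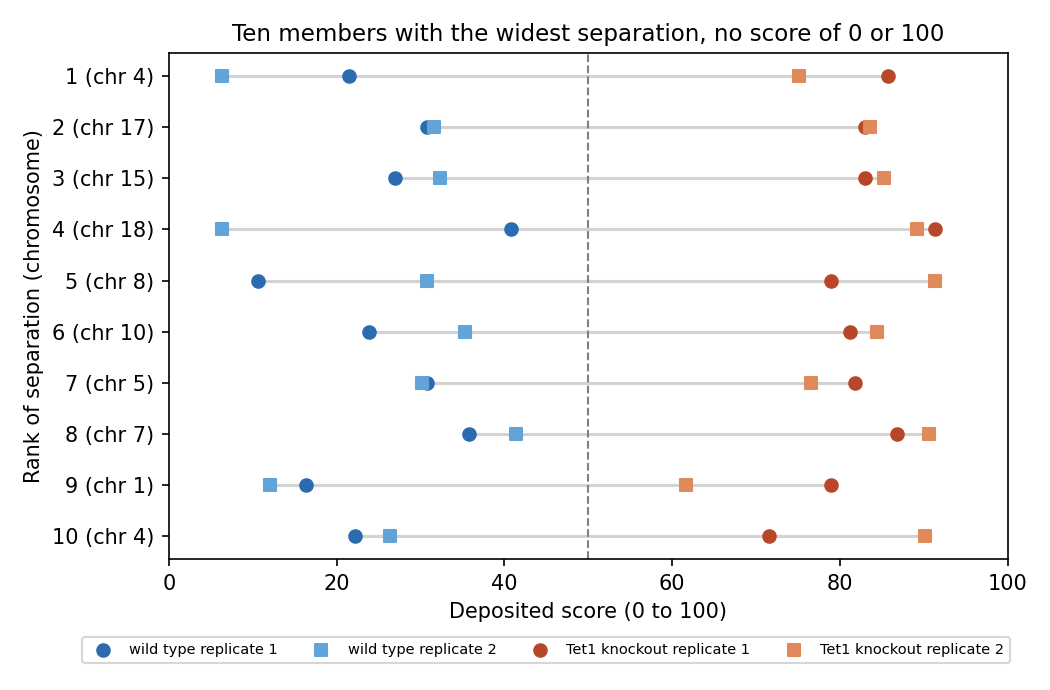
Deposited scores (horizontal axis, 0 to 100) in the 4 libraries at the 10 wild type-low sites with the widest separation among sites with no score of 0 or 100, in order of separation (vertical axis, with the chromosome); the dashed line marks 50. Every knockout score is at 61.7 or above and every wild type score at 41.4 or below, values that the ranking itself favours.

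A score of exactly 100 stood at 7 of the 2190 sites in knockout replicate 1 and at 17 in knockout replicate 2. The only other sites with 100 in a knockout library were below 50 in both wild type mice and 1 knockout mouse. Of those 2661 sites, 13 had it in knockout replicate 1 and 10 in knockout replicate 2. The rule leaves only knockout scores of 50 or more, which favours such scores among the wild type-low sites. No wild type-low site had a score of exactly 0. In the knockout libraries the rule fixes this, and in the wild type libraries the list appears to fix it. Wild type mice scored 0 only at sites where both knockout scores were below 50. Knockout mice scored 0 only at sites where both wild type scores were below 50. The lack of such scores here is thus not read as a property of the wild type-low sites. Together 21 sites (0.959%) had a score of 0 or 100, against 3.70% of all scored autosomal sites and 1.47% of the reverse class. The share over all sites also counts scores of 0, so it is no like measure. The 3 widest separations of all were at sites with 100 in both knockout libraries. They were 111451924 on chromosome 12 (14.1 and 30.7 in the wild type), 58726151 on chromosome 4 (37.8 and 14.5) and 51653108 on chromosome 13 (38.9 and 32.4). Equal scores at the end of the scale give no measure of the spread between the knockout mice.

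Sites just inside and just outside the rule had scores close to each other. The smallest separation, 0.472 at 47210489 of chromosome 19, came from wild type scores of 30.8 and 49.8 and knockout scores of 50.3 and 54.8. At 137444258 of chromosome 4 wild type scores were 49.6 and 41.9 and knockout scores 50.2 and 55.6. At 56382491 of chromosome 7 wild type scores were 31.4 and 49.8 and knockout scores 61.7 and 50.5. Outside the rule, 125320645 on chromosome 4 had wild type scores of 43.9 and 45.5 and knockout scores of 64.1 and 49.99. The site at 29883681 of chromosome 17 had 54.3 and 49.99 in the knockout, and that at 126302301 of chromosome 10 had 61.1 and 49.98. In all, 162 sites missed the rule because 1 knockout score lay from 49 to below 50. No site missed it on the wild type side alone, since no listed site had both knockout scores at 50 or above and a wild type score at 50 or above. The list thus ends where the rule does on that side.

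The number of sites changed at the cut-off itself in knockout replicate 1. Among the 6595 sites below 50 in both wild type libraries, 297 had a knockout replicate 1 score from 48 to below 50 and 464 from 50 to below 52. Knockout replicate 2 had 279 and 288 sites in the same bins. When both knockout scores lay within 4 units of 50, 104 sites had both at 50 or above. Only replicate 1 was at 50 or above at 60 such sites, only replicate 2 at 40, and neither at 51. Within 2 units of 50 the counts were 20, 14, 16 and 10 in the same order. At either width wild type-low sites were thus more numerous than each of the other 3 kinds. For the reverse class, among sites below 50 in both knockout libraries, 74 had both wild type scores from 50 to below 54, 32 and 32 had 1 of them there and the other from 46 to below 50, and 67 had both from 46 to below 50. Within 2 units of 50 its counts were 12, 5, 5 and 20, so there the sites with both scores below 50 were the most numerous. Within 6 units its counts were 154, 62, 69 and 113, beside 225, 126, 94 and 130 for sites below 50 in both wild type libraries. Within 4 or 6 units, sites with both scores at 50 or above were thus the most numerous kind on either side.

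Agreement between the knockout mice also differed between the sides of the cut-off. Where knockout replicate 1 was at 50 or above, knockout replicate 2 was too at 2190 of 3620 sites (60.5%, 95% Wilson interval 58.9 to 62.1). Where replicate 1 was below 50, replicate 2 was at 50 or above at 1231 of 2975 sites (41.4%, 39.6 to 43.2). Read the other way, the shares were 64.0% and 45.1%. Grouped by replicate 1 scores, the share in replicate 2 was 40.4% from 30 to below 40 and 41.8% from 40 to below 50, then 60.8% from 50 to below 60 and 62.5% from 60 to below 70. It was 55.4% from 70 to below 80, 57.4% from 80 to below 90 and 37.5% (22.9 to 54.7, 32 sites) at 90 or more. Above the cut-off the share in replicate 2 was thus no higher at replicate 1 scores of 70 or more than from 50 to below 70. In bins of 2 units next to the cut-off, the share grouped by replicate 1 was 43.1% (37.6 to 48.8) below it and 60.1% (55.6 to 64.5) above. Grouped by replicate 2 it was 37.3% from 46 to below 48, 53.8% (47.9 to 59.5) from 48 to below 50 and 58.3% (52.6 to 63.9) from 50 to below 52, so the intervals next to the cut-off overlapped. The wild type mice showed the same kind of step at sites below 50 in both knockout mice. Where wild type replicate 1 was at 50 or above, wild type replicate 2 was too at 64.8%, against 32.8% elsewhere. With the replicates exchanged the shares were 60.3% and 28.7%. The step is thus not particular to the wild type-low sites. The deposited list may follow criteria at 50 beyond those its scores reveal, which was not tested. These shares are therefore not taken as a check of one mouse by the other. The intervals cover counting error over sites only.

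**Figure D3:**
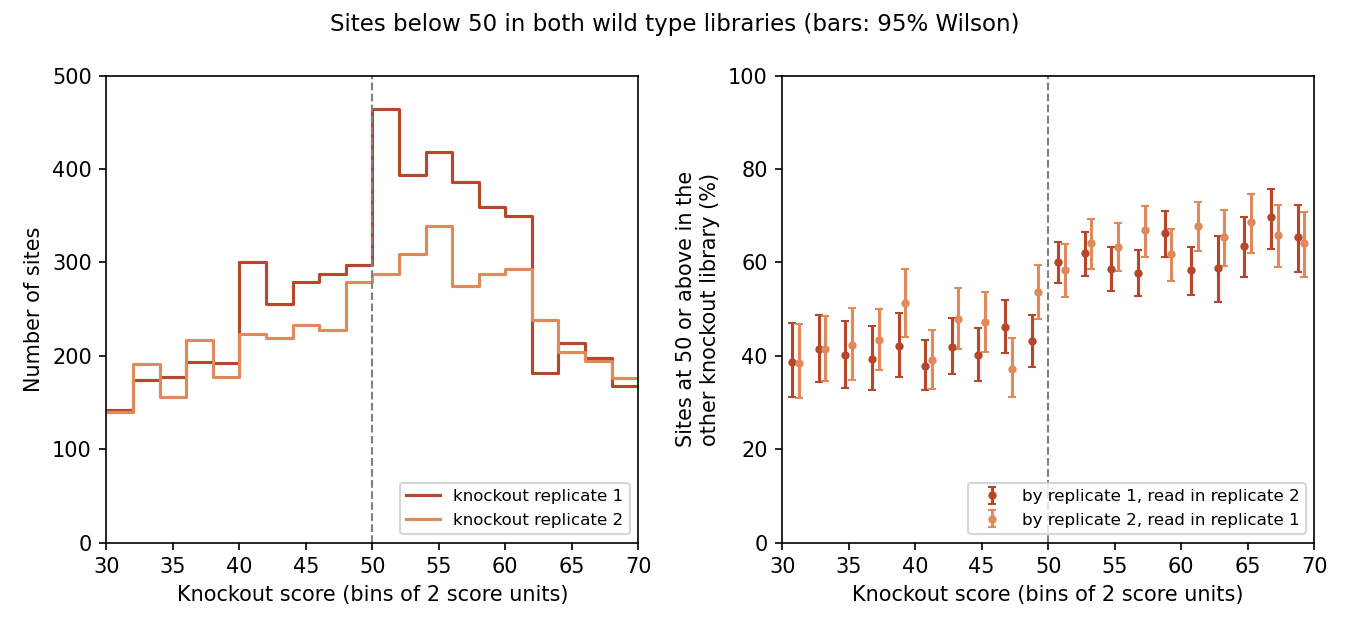
Sites below 50 in both wild type libraries, in bins of 2 score units of a knockout score (horizontal axes); left, the number of sites per bin for each knockout library, and right, the percent of them at 50 or above in the other knockout library with 95% Wilson intervals. Knockout replicate 1 steps from 297 to 464 sites at the dashed line at 50, and the share from 43.1% to 60.1% in the same bins, while replicate 2 goes from 279 to 288 sites and from 53.8% to 58.3%. Not drawn are sites below 50 in both knockout libraries, where the share by wild type replicate 1 goes from 23.1% to 60.7% in the same bins.

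A low wild type score did not go with a more frequent knockout score above the cut-off. Of sites whose wild type mean was from 45 to below 50, 39.6% (36.5 to 42.8) met the rule, and of those from 40 to below 45, 37.6% did. The share fell to 32.2% from 30 to below 40, 22.5% from 20 to below 30 and 13.01% (8.49 to 19.4, 146 sites) below 20. Median knockout scores fell with it, from 53.7 and 53.6 in the highest group to 40.1 and 35.2 in the lowest. Among the listed sites, wild type and knockout scores were thus low together where wild type scores were lowest. How far the list shapes this was not tested. Among sites below 50 in both wild type mice, those with a wild type score of exactly 0 were all below 50 in all 4 libraries. There were 31 in wild type replicate 1 and 26 in replicate 2. Such sites have a wild type mean below 30 and, with both knockout scores below 50, did not meet the rule. The shares without them were not computed. Within the wild type-low sites themselves scores of different libraries were only weakly related. Over the 2190 sites Spearman's rho was 0.104 for the pair of wild type mice and 0.115 for the pair of knockout mice, and from -0.0740 to -0.0386 between libraries of different genotype. All 4 ranges are cut at 50 by the rule.

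Many scores recurred from site to site. The score 42.5 in wild type replicate 1 stood at 109 wild type-low sites (4.98%) and at 358 of all 9442 scored autosomal sites. The score 61.7 in knockout replicate 1 stood at 99 wild type-low sites (4.52%) and at 176 of the 9442. Counting a score as recurring where at least 20 scored autosomal sites of that library hold exactly the same value, 44.1% of wild type-low sites had one in wild type replicate 1 and 32.3% in wild type replicate 2. In knockout replicates 1 and 2 the shares were 27.1% and 9.32%. At the other autosomal sites they were 40.7%, 30.4%, 38.5% and 19.95% in the same order. Recurring scores were thus less frequent at wild type-low sites in the knockout libraries, where the rule leaves only scores of 50 or more, and more frequent by a few percentage points in the wild type libraries, where it leaves only scores below 50.

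Some wild type-low sites shared all their scores with other sites. At 144 of them (6.58%, 5.61 to 7.69) all 4 scores were identical, to every deposited digit, to those of at least 1 other site. The share was 4.26% (3.82 to 4.75) at the other autosomal sites and 6.26% (5.07 to 7.72) in the reverse class. The 144 sites formed 48 sets, so the 2190 sites held 2094 distinct sets of scores. Of the 48 sets, 29 had 2 sites, 6 had 3 and 13 had 4 or more. In 22 sets no library held a recurring score, and in 1 set all 4 did. Thus only 1 of the sets was made wholly of scores common at other sites. Most sets, 31, lay on a single chromosome, 23 of them within 1 Mb, and 17 were shared between chromosomes. Whether the tags of such sites have the same sequence was not tested.

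The largest set was 10 sites on chromosome 4 between 41720424 and 42748423, all with wild type scores of 47.5 and 42.1 and knockout scores of 67.7 and 60.1. A second set there had 5 sites with wild type scores of 44.9 and 45.8 and knockout scores of 56.5 and 61.8. From 41633074 to 42818335 of chromosome 4, 21 of 50 scored sites were wild type-low, and all 21 belonged to 4 sets. On chromosome 14, 9 sites between 4093239 and 8106628 each had wild type scores of 40.8 and 38.4 and knockout scores of 50.7 and 69.2. On chromosome 13, 6 sites between 65573145 and 66833183 had wild type scores of 47.2 and 47.1 and knockout scores of 82.3 and 68.3. Each of these stretches counts many times in any total over sites while adding few distinct sets of scores. With 1 site kept per set the mean gap between genotypes was 23.3, and 22.9% of the remaining 9148 sites were wild type-low.

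Listed sites close to a wild type-low site were more often wild type-low themselves. Within 1000 bp, 130 of 346 neighbours (37.6%, 32.6 to 42.8) of wild type-low sites met the rule, against 216 of 1112 neighbours (19.4%, 17.2 to 21.9) of the other sites and 23.2% of all sites. Each pair of sites is counted from both of its ends. Within 200 bp the shares were 40.2% and 17.9%, within 10000 bp 30.6% and 21.5%, and within 100000 bp 25.6% and 23.0%. The contrast thus faded with distance. With 1 site per identical set it was 32.9% (27.9 to 38.4) against 20.4% (18.0 to 23.0) within 1000 bp. Both shares were lower with a cut-off of 45 (21.4% against 12.9%) or 55 (20.5% against 10.9%), after median centring (25.0% against 12.5%) and after quantile normalization (22.4% against 9.64%), which also leave fewer sites that meet the rule. They were higher, at 46.4% against 26.1% and 51.4% against 29.7%, without knockout replicate 1 and 2. The intervals treat pairs as separate counts, and all pairs share the same 4 libraries, so no test of the contrast was made.

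**Figure D4:**
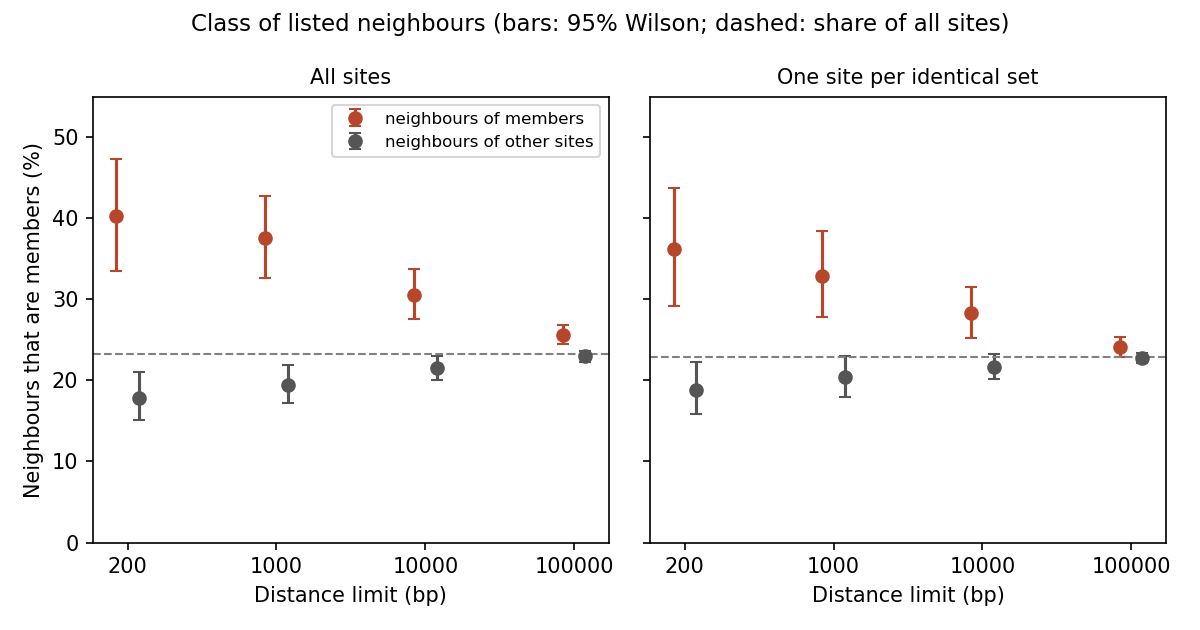
Percent of listed neighbours that are wild type-low (vertical axis) within each distance in bp (horizontal axis), for neighbours of wild type-low sites (members, red) and of the other sites (grey), with 95% Wilson intervals; left, all sites, right, 1 site per set of identical scores. At 1000 bp the values are 37.6% against 19.4% on the left and 32.9% against 20.4% on the right, and the dashed lines mark the share over all sites, 23.2% and 22.9%.

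The scores of the neighbours themselves were as follows. The 315 distinct sites within 1000 bp of a wild type-low site had mean scores of 42.8 and 43.6 in the wild type mice and of 49.03 and 47.5 in the knockout mice, a difference of 5.07. The 943 distinct sites within 1000 bp of another site had mean scores of 43.3 and 44.1 in the wild type mice and of 45.3 and 44.0 in the knockout mice, a difference of 0.928. Both groups include wild type-low sites, which the rule sets higher in the knockout, so these differences are given as a description. Among neighbours of wild type-low sites that did not meet the rule themselves, 203 sites, the difference was -2.92, and it was -4.59 at such neighbours of other sites. The direction at these remaining sites is shaped by taking the wild type-low ones out.

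Wild type-low sites were mostly single. The median distance between consecutive ones was 340069 bp. With 1000 bp as the limit, 2078 stood alone, 94 formed 47 pairs and 18 formed 6 groups of 3. The share with any listed site within 1000 bp, 13.3% (12.0 to 14.8), had an interval that overlapped that of the other sites, 12.8% (12.0 to 13.6).

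Of the 6 groups of 3, those on chromosomes 8 and 15 and one of those on chromosome 5 held no site of an identical set. On chromosome 8 the sites at 3517391, 3517610 and 3517838 had separations of 10.04, 5.20 and 30.3. The third had wild type scores of 38.6 and 38.1 and knockout scores of 70.9 and 68.9. On chromosome 15 the sites at 78503388, 78503429 and 78503624 had separations of 3.75, 13.8 and 11.5. On chromosome 5 the sites at 122444057, 122444277 and 122444457 had separations of 17.9, 7.73 and 11.2, with wild type means of 41.8 and 43.4 and knockout means of 64.6 and 58.2. Another site listed within 1000 bp of that group did not meet the rule. In these 3 groups the widest single separation was 30.3 and the narrowest 3.75.

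The other 3 groups held identical sets. At 103456061, 103456140 and 103456219 of chromosome 5, spaced 79 bp apart each time, all 3 sites had wild type scores of 44.0 and 44.2 and knockout scores of 57.2 and 60.3. That group holds 1 distinct set of scores. On chromosome 4 the sites at 145722577 and 146561948, in separate groups, shared wild type scores of 47.9 and 47.6 and knockout scores of 50.5 and 56.3. The same scores also stood at 1 site each on chromosomes 9 and 14. In each of these chromosome 4 groups 2 of 3 sites belonged to identical sets.

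The 5 closest pairs outside such groups showed how far neighbours can differ. The closest, 27749562 and 27749603 on chromosome 2, had identical scores in all 4 libraries. On chromosome 14, 104722372 and 104722440 scored 34.0 and 29.0 in wild type replicate 1, 30.6 and 46.1 in wild type replicate 2, 66.2 and 59.3 in knockout replicate 1 and 63.3 and 62.2 in knockout replicate 2. On chromosome 6, 118138833 and 118138939 scored 46.5 and 8.34 in wild type replicate 2 and 82.7 and 55.6 in knockout replicate 2. The pair on chromosome 4, 129692027 and 129692129, scored 50.5 and 67.3 in knockout replicate 1. The pair on chromosome 18, 37645477 and 37645584, scored 74.2 and 55.05 in knockout replicate 2. Sites about 100 bp apart could thus meet the rule together with single scores more than 15 units apart.

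By chromosome, the share of scored sites that were wild type-low ran from 17.3% on chromosome 12 (69 of 399, 13.9 to 21.3) to 29.6% on chromosome 14 (99 of 335, 24.9 to 34.6). On chromosome 14, 15 of the 99 belonged to identical sets, and with 1 site per set the share was 27.7% (23.05 to 32.9). On chromosome 12 it was then 16.8% (13.4 to 20.8). Chromosome 4 had the most wild type-low sites, 221 of 838 (26.4%), of which 37 belonged to identical sets. The mean gap between genotypes at these sites ran from 21.4 on chromosome 19 to 25.6 on chromosome 18.

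**Figure D5:**
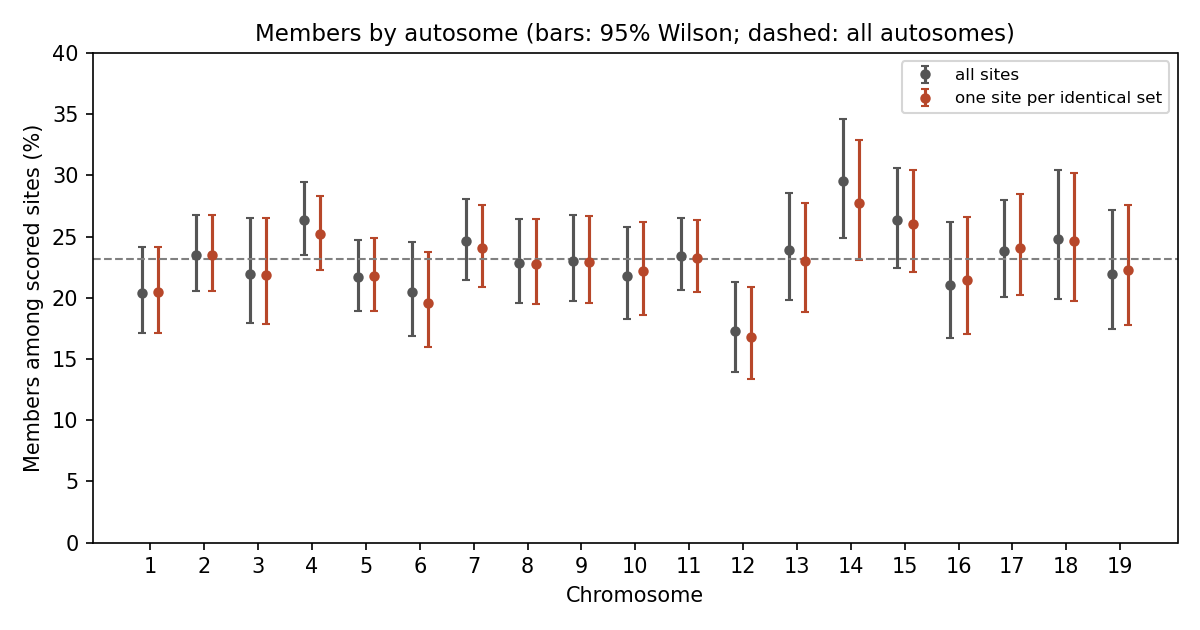
Percent of scored sites that are wild type-low (vertical axis) on each autosome (horizontal axis), over all sites (grey) and with 1 site per set of identical scores (red), with 95% Wilson intervals; the dashed line is the share over all autosomes, 23.2%. Chromosome 14 is highest at 29.6% and 27.7% and chromosome 12 lowest at 17.3% and 16.8%.

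In windows of 1 Mb, 1024 of 1784 windows with a scored site held at least 1 wild type-low site, and 90 held 5 or more. The fullest, from 42 Mb of chromosome 4, held 16 of 37 scored sites but only 4 distinct sets of scores. The next, from 115 Mb of chromosome 11, held 12 of 31, all distinct. The window from 98 Mb of chromosome 15 held 11 of 24 with 8 distinct, and the one after it 10 of 28, all distinct. The window from 121 Mb of chromosome 9 held 9 of 14, all distinct, the highest share among the 8 fullest windows that had no identical scores. These windows were chosen after their counts were seen.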

How the data were processed

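The authors deposited, for each mouse, a score from 0 to 100 per listed site with no unit, direction or formula. Per the submitters' processing notes the genome build was mm9; the aligner and the counting of tags are not stated there. Per the labels' protocols, DNA was cut with HpaII and MspI in separate reactions and tags were released with EcoP15I. The 4 files were joined on chromosome and position, and sites of chromosomes 1 to 19 with 4 scores were kept. Depth per site is unknown. The sites and lists were chosen with earlier results of these data known.

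The rule uses all 4 libraries, so no test was run. Shares carry 95% Wilson intervals. The plan took the knockout scores at sites low in the wild type as unselected, but the counts at 50 in knockout replicate 1 went against this, so knockout agreement is a description. Named sites were those with the widest separation (10 without and 3 with a score of 0 or 100), the narrowest and nearest misses, groups of 3 within 1000 bp and the 5 closest pairs. Gene lists were not used, as no mm9 annotation was used. Alternatives were cut-offs of 45 and 55, median centring, quantile normalization, sites without scores of 0 or 100, each library left out, other distances, log2(score + 1) and, chosen after seeing the data, 1 site per identical set. The counting steps were tested on simulated data. Python 3.11.15, numpy 2.4.6, pandas 2.3.3 and scipy 1.17.1 were used.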

Additional observations from a re-analysis of the deposited data

How the results depend on the processing

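The number of wild type-low sites, 2190, was 1486 with a cut-off of 45, 1216 with 55, 1464 after median centring and 1187 after quantile normalization, and these last 1464 and 1187 sites were all among the 2190. Median centring raises both wild type libraries, from 42.5 and 42.3, and lowers both knockout libraries, from 46.5 and 44.9, to a common 44.0. A site that meets the rule after centring therefore met it before. The full overlap is not read as stability of the set. Leaving out a knockout library gave 3421 sites without replicate 1 and 3620 without replicate 2, because the rule then asks for fewer scores. Without either wild type library the count stayed at 2190. The list fixes this, since no listed site had both knockout scores and a wild type score at 50 or above. For the same reason the count with a cut-off of 55 lacks sites with a wild type score from 50 to below 55. The share of sites at 50 or above in knockout replicate 2, given replicate 1, was 60.5%. It became 63.5% and 48.2% with cut-offs of 45 and 55, 58.1% after median centring, 53.4% after quantile normalization and 64.0% with the replicates exchanged, each time above the share at sites low in the other library. The neighbour share of 37.6% became 21.4% and 20.5% with cut-offs of 45 and 55, 25.0% after median centring, 22.4% after quantile normalization and 30.6% within 10000 bp, each time above that at neighbours of other sites. Without single libraries it ran from 37.6% to 51.4%, with 46.4% without knockout replicate 1 and 51.4% without knockout replicate 2. The gap of 23.2 became 25.4 and 27.1 with the cut-offs of 45 and 55 and 0.69 on the log2(score + 1) scale, and ran from 22.2 to 25.0 without single libraries. The causes were not tested. Of the named sites, the 13 widest stayed separated under both scalings and the 3 narrowest under neither. No paired analysis was possible because no result comes from a test and the mouse numbers are not stated to pair mice. The unknown depth limits what any single score can show.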
